A study of Mus musculus with 7 samples.

Results

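This report describes 10 mouse genes, 6 small leucine-rich proteoglycans (Dcn, Lum, Bgn, Fmod, Ogn and Prelp) and 4 elastic fibre genes (Eln, Fbn1, Fbln5 and Mfap4), out of the 55487 genes listed in a table of raw read counts from cultured liver slices. The genes were matched to their rows by symbol through the GENCODE annotation of GRCm38, and all 10 had a row. The set was chosen because Dcn did not fall with the collagens in slices exposed to valproate, so the difference between the groups was part of the choice, and it is described for these genes without a p, beside counts of what the tests over all genes called. The samples were precision-cut liver slices (PCLS), thin discs of living liver kept in culture, from healthy male BALB/c mice, collected on day 3. The CTR group (3 libraries) was kept in William's E medium without valproate, and the VPA group (4 libraries) in the same medium with 2.5 mM valproic acid sodium salt, an inhibitor of class I histone deacetylases. No other treatment separated the groups, and slicing itself sets off a repair response in which hepatic stellate cells (HSC), the main matrix-producing cells of injured liver, become activated, so the CTR group is not resting liver. Each mouse liver is given by the methods as 1 biological repeat, and each library name also carries a further number, here called the slice culture number, whose meaning is not stated.

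The libraries were made with a 3′ end kit, which places reads at the end of each polyadenylated transcript, so counts do not grow with gene length, and levels in CPM (counts scaled to a library of the same standard size) can be compared between genes. They held 1743675 to 4773750 counts in CTR and 1400887 to 3102450 in VPA. Where no read was counted, up to 3 counts remain possible by counting error alone, a limit of 0.591 CPM in the deepest and 2.41 CPM in the shallowest library. Of the 6392 genes with a mean of at least 20 CPM over all 7 libraries, 21 to 74 were at 0 in each CTR library and 99 to 332 in each VPA library. With the 6274 genes that reached this mean in VPA instead, the counts at 0 were 26 to 86 in CTR and 54 to 242 in VPA, and these ranges overlap. Each hepatocyte marker listed had counts in at least 1 library, apart from Ass1, which was at 0 in every library. Tat, Cps1, Cyp2e1 and Hpd were at 0 in some libraries. The summed level of the hepatocyte markers was 3620 to 8451 CPM in CTR and 2495 to 8098 CPM in VPA. Of 10 tested markers 2 were lower and 8 higher, beside 54.2% lower over all tested genes. All 14 stellate cell markers had counts in at least 1 library. Libraries that stand apart were singled out after the values were seen: CTR replicate 2 had the lowest summed stellate marker level of its group (378 CPM against 742 and 777 CPM), VPA replicate 1 the lowest of all (276 CPM) and VPA replicate 4 the highest of all (853 CPM). These are bulk samples, in which fewer cells of a type and less RNA per cell cannot be told apart.

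Small leucine-rich proteoglycans are secreted proteins built from leucine-rich repeats, most of which carry chondroitin, dermatan or keratan sulphate chains. Decorin (Dcn), lumican (Lum) and fibromodulin (Fmod) bind collagen fibrils and limit their width, and decorin and biglycan (Bgn) also bind TGFβ, while soluble biglycan is a ligand of Toll-like receptors. Elastic fibres form on microfibrils of fibrillin (Fbn1), onto which elastin (Eln) is laid with the help of fibulin-5 (Fbln5) and the microfibril-associated glycoprotein Mfap4. In the liver these genes are expressed mainly by stellate cells, portal fibroblasts and vascular smooth muscle, and elastic fibres accumulate late in fibrosis.

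The proteoglycan genes stand in family clusters, and within a cluster the levels in the slices were far from equal. Dcn (10:97479609-97518143, plus strand) lies 47.0 kb upstream of Lum (10:97565128-97572703, plus strand) in a run of 202.8 kb that also holds keratocan (Kera) and epiphycan (Epyc). Dcn and Lum had counts in all 7 libraries, and Kera and Epyc were at 0 in all 7. Ogn (13:49608046-49624501, plus strand) is the last gene of a run of 119.7 kb with Ecm2, Aspn and Omd, and these 4 genes held 45, 12, 1 and 14 counts over all libraries. Prelp (1:133910304-133921414, minus strand) lies 115.8 kb from Fmod (1:134037254-134048277, plus strand) and beside opticin (Optc), in a run of 151.1 kb. Prelp had 437 counts over the 7 libraries, and Fmod and Optc were at 0 in every library. Bgn stands alone at X:73483602-73495933 on the plus strand. The elastic fibre genes are on 4 chromosomes, Eln at 5:134702593-134747323 (minus strand), Fbn1 at 2:125300594-125507993 (minus strand), Fbln5 at 12:101746565-101819055 (minus strand) and Mfap4 at 11:61485431-61488900 (plus strand). All positions are GENCODE gene bounds on GRCm38. Ogn, Prelp, Eln, Fbn1 and Mfap4 overlap another gene on the opposite strand (Cenpp, Gm15851, Gm30003, Gm9913 and Mapk7), and since the use of strand in the counting is not given, their counts are uncertain to that extent.

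The 250 bases before the RefSeq transcription start (GRCm38.p6) are shown for 4 proteoglycan genes of which Bgn was the most abundant and Fmod was at 0, because 2 of them, Prelp and Fmod, are neighbours of which only Prelp had counts. A promoter entry was found for 6 of the 10 genes and not for Dcn, Lum, Eln and Mfap4. Capitals mark matches on either strand to 3 short motifs. The TATA box was searched as TATAAA. The box named for its letters was searched as CCAAT, and the box bound by Sp factors as GGGCGG. Each sequence is written 5′ to 3′ on the strand of its gene, for Bgn at chrX:73483351-73483600 (plus), Prelp at chr1:133921402-133921651 (minus), Ogn at chr13:49607765-49608014 (plus) and Fmod at chr1:134037004-134037253 (plus).
Bgn: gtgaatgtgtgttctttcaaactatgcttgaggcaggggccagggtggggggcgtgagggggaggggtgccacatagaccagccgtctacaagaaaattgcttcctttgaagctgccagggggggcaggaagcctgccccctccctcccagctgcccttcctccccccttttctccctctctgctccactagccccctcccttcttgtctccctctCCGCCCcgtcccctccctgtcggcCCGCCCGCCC
Prelp: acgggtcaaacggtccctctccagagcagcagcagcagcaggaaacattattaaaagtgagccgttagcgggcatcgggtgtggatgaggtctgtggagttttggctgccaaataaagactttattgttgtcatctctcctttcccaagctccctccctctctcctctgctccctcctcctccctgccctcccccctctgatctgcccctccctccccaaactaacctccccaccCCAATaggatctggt
Ogn: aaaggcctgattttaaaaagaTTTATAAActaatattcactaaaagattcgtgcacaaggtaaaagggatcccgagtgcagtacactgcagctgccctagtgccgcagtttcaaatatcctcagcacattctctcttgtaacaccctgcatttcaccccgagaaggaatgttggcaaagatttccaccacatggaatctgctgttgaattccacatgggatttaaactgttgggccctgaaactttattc
Fmod: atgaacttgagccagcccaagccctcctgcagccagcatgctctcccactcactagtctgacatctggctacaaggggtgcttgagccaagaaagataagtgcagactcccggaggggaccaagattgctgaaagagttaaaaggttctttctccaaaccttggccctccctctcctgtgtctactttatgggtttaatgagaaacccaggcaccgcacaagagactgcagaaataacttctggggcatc
The Bgn window had 64.4% G and C, 7 CpG dinucleotides and 3 matches to GGGCGG. The Prelp window had 55.6% G and C, 5 CpG and 1 match to CCAAT close to the start. The Ogn window had 42.0% G and C and 4 CpG, and its only capitals are 1 stretch that reads TATAAA on both strands and so counts as 2 matches that overlap. The Fmod window had 51.2% G and C, 2 CpG and no match. Over 32851 RefSeq windows of the same length the medians were 52.4% G and C and 6 CpG, and TATAAA was found in 12.4%, CCAAT in 33.8% and GGGCGG in 32.7% of them. A match of these letters is a description and not a binding site.

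Dcn and Bgn were the abundant members of the set, and Eln, Mfap4 and Fmod were at 0 in most libraries. By mean CPM, Dcn ranked 70 among the 10876 genes kept for testing by edgeR's count filter, and Bgn ranked 205. Fbn1, Lum and Prelp ranked 3946, 4706 and 5413, and Fbln5 ranked 9360. Ogn, Eln, Mfap4 and Fmod did not pass the filter. In log2 CPM (prior count 2) over all 7 libraries, neighbours in this order were compared with a two-sided exact sign-flip permutation test, adjusted over the 9 neighbour pairs, for which 7 libraries allow no unadjusted p below 0.0156. The test takes the libraries as independent, although some share a slice culture number. If that number marks a liver, there are fewer independent units, and they would allow only larger p-values. Dcn stood above Bgn in 7 of 7 libraries, by 0.58 ± 0.49 (SD, n = 3) in CTR and 1.57 ± 0.46 (SD, n = 4) in VPA. No p is given for this pair, since the choice of the set used the VPA levels of Dcn. The gap was smallest in CTR replicate 2, where Dcn was at 410 and Bgn at 406 CPM. The step from Bgn down to Fbn1 was the largest of the 9, 3.48 (11.1-fold), and was seen in 7 of 7 libraries (exact adjusted p = 0.0352). Over the 7 libraries together, Fbn1, Lum and Prelp were not separated (exact adjusted p = 0.375 for Fbn1 against Lum and 0.723 for Lum against Prelp), but their order was not the same in the groups. Fbn1 was above Lum in 3 of 3 CTR libraries, by 1.13 ± 0.42 (SD, n = 3), and below it in 4 of 4 VPA libraries, by a difference of -0.18 ± 0.16 (SD, n = 4). Lum was above Prelp in 1 of 3 CTR libraries and in 4 of 4 VPA libraries. This swap follows from the same contrast on which the set was chosen and was not tested. Prelp was above Fbln5 by 1.66 (3.15-fold) and Fbln5 above Ogn by 1.52 (2.87-fold), each in 7 of 7 libraries (exact adjusted p = 0.0352 for both). For the 3 steps from Bgn to Fbn1, Prelp to Fbln5 and Fbln5 to Ogn, the exact p adjusted over the 8 pairs without Dcn was 0.0417. Ogn was above Eln in 5 of 7 libraries (exact adjusted p = 0.169). Eln, Mfap4 and Fmod were tied at 0 in most libraries, so the test could not have separated them. With any 1 library left out, the smallest p that 6 libraries allow is 0.0312 before adjustment, and no pair then passed.

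**Figure D1:**
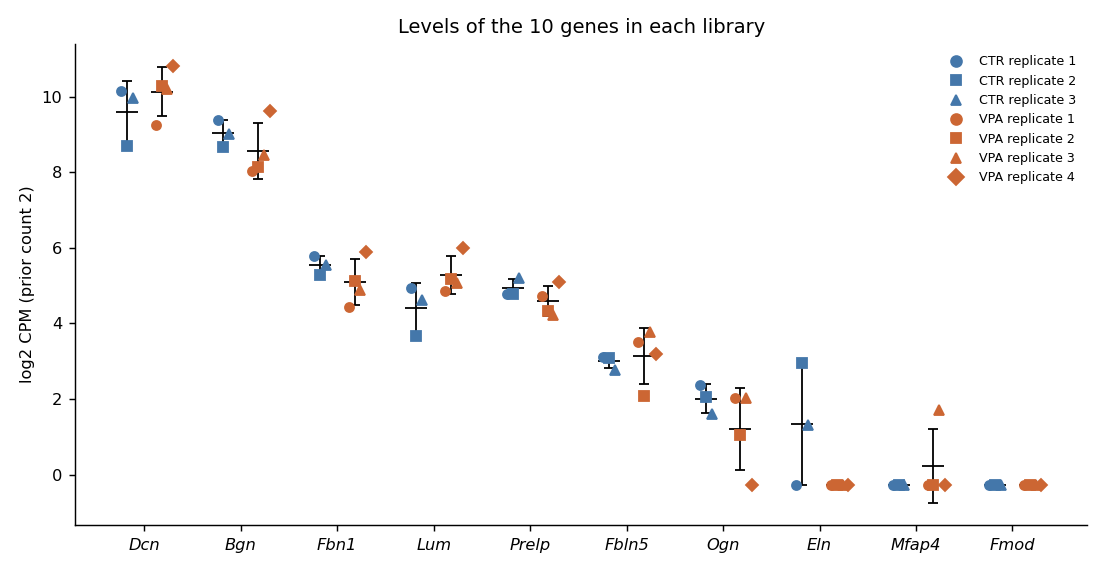
Level of each of the 10 genes in log2 CPM with a prior count of 2 (vertical axis), ordered from left to right by the mean over 7 libraries. Blue symbols are the 3 CTR libraries and orange symbols the 4 VPA libraries, horizontal bars are group means and vertical bars ± 1 SD. Dcn and Bgn lie far above the other genes, Fmod and all but 1 library of Mfap4 lie at the level of a count of 0, and the 2 groups overlap for every gene.

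Between the groups, none of the 10 genes had libraries that were wholly apart. Of the 6 genes that passed the filter, Dcn, Lum and Fbln5 had a higher and Bgn, Prelp and Fbn1 a lower estimate in VPA. Their median log2 fold change was -0.03, beside -0.06 over all 10876 genes tested. That median depended on the fit, at -0.33 with DESeq2 (7 genes), -0.39 with limma-voom, -0.41 with no filter (9 genes) and 0.16 without VPA replicate 2. None of these 6 was called by edgeR's quasi-likelihood test with Benjamini-Hochberg adjustment at 0.05, nor at an unadjusted p of 0.05. That test called 0.00919% of the tested genes as higher and 0% as lower, and at an unadjusted p 3.65% were higher and 4.62% lower. DESeq2 called none of the 10 either, with no adjusted p for Fmod, Eln and Mfap4, while it called 0.256% of its genes as higher and 0.754% as lower. Over all tested genes, the libraries were apart with VPA above in 4.44% and with VPA below in 7.41%. The set was chosen on this contrast, so nothing is read from its counts beside these shares.

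Dcn, the decorin gene, was high in every library and its level was on average higher with VPA. The counts were 2897, 2082 and 1809 in CTR replicates 1 to 3 and 921, 4065, 1455 and 2379 in VPA replicates 1 to 4. Scaled to library size these were 1141, 410 and 992 CPM in CTR and 601, 1250, 1168 and 1797 CPM in VPA. VPA replicates 2, 3 and 4 were above every CTR library, and VPA replicate 1 was between CTR replicates 2 and 3. The means were 848 ± 386 CPM (SD, n = 3) and 1204 ± 489 CPM (SD, n = 4), and the log2 fold change was 0.51 (SE 0.44), a fold of 1.42. Without CTR replicate 2, its lowest library, the log2 fold change of Dcn was 0.17, and without CTR replicate 1 it was 0.77.

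Lum, which lies beside Dcn and whose protein organises collagen fibrils, had far fewer counts. Its counts were 75, 60 and 43 in CTR replicates 1 to 3 and 43, 115, 41 and 83 in VPA replicates 1 to 4. In CPM Lum was at 29.6, 11.8 and 23.6 in CTR and at 28.1, 35.4, 32.9 and 62.7 in VPA. As for Dcn, VPA replicates 2 to 4 were above every CTR library and VPA replicate 1 was not. The mean of Lum was 21.7 ± 9.02 CPM (SD, n = 3) in CTR and 39.8 ± 15.6 CPM (SD, n = 4) in VPA, with a log2 fold change of 0.88 (SE 0.43) and a fold of 1.84, the highest estimate among the genes of the set that passed the filter. It was 0.57 without CTR replicate 2 and 1.17 without CTR replicate 1, and with CTR replicate 1 left out the groups of Lum no longer overlapped. Without VPA replicate 1 the groups of both Dcn and Lum were apart, with VPA above.

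Bgn is the closest relative of Dcn in protein sequence among these genes, and its mean was lower with VPA. Counts of Bgn were 1689, 2061 and 945 in CTR replicates 1 to 3 and 397, 914, 437 and 1048 in VPA replicates 1 to 4. These were 666, 406 and 518 CPM in CTR and 259, 281, 351 and 791 CPM in VPA. VPA replicates 1 to 3 were below every CTR library and VPA replicate 4 was above every CTR library. The mean was 530 ± 130 CPM (SD, n = 3) in CTR and 421 ± 250 CPM (SD, n = 4) in VPA, and the log2 fold change was -0.33 (SE 0.41). The log2 fold change of Bgn was -0.15 without CTR replicate 1. Without VPA replicate 4 it was -0.84, and the groups were apart with VPA below.

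Prelp, a proteoglycan with a basic end that anchors basement membranes to connective tissue, was at 26.8, 26.6 and 36.2 CPM in CTR and at 25.5, 19.4, 17.7 and 33.2 CPM in VPA, from 68, 135 and 66 counts and from 39, 63, 22 and 44 counts. Its VPA replicates 1 to 3 were below every CTR library and VPA replicate 4 was inside the CTR range. The mean was 29.9 ± 5.47 CPM (SD, n = 3) in CTR and 23.9 ± 7.05 CPM (SD, n = 4) in VPA. The log2 fold change was -0.32 (SE 0.32), with -0.18 without CTR replicate 3 and -0.52 without VPA replicate 4. Ogn (osteoglycin, or mimecan) had 11, 17 and 4 counts in CTR and 5, 4, 4 and 0 in VPA, which is 2.19 to 4.33 CPM and 0 to 3.26 CPM. These ranges overlap, and the counts were above 3 in the CTR libraries and in 3 of the 4 VPA libraries. Fmod, a fibril-binding proteoglycan, was at 0 counts in all 7 libraries, as were Ass1 and Adgre1, which hepatocytes and macrophages are known to express.

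Among the elastic fibre genes, Fbn1 and Fbln5 had counts in all 7 libraries. Fbn1, which encodes the main microfibril protein fibrillin-1, had 138, 193 and 83 counts in CTR and 32, 111, 36 and 78 in VPA. In CPM these were 54.4, 38.0 and 45.5 in CTR and 20.9, 34.1, 28.9 and 58.9 in VPA. VPA replicates 1 to 3 were below every CTR library and VPA replicate 4 was above them all. The mean of Fbn1 was 46.0 ± 8.18 CPM (SD, n = 3) in CTR and 35.7 ± 16.4 CPM (SD, n = 4) in VPA, and its log2 fold change was -0.36 (SE 0.36), with -0.17 without VPA replicate 1 and -0.71 without VPA replicate 4. Without VPA replicate 4 the groups of Bgn, Prelp and Fbn1 were all apart, with VPA below.

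Fbln5, needed to assemble elastin on microfibrils, had 20, 39 and 11 counts in CTR and 16, 11, 16 and 11 in VPA. The levels were 7.88, 7.69 and 6.03 CPM in CTR and 10.4, 3.38, 12.8 and 8.31 CPM in VPA. VPA replicates 1, 3 and 4 were above every CTR library and VPA replicate 2 was below them, and without VPA replicate 2 the groups were apart. The mean was 7.20 ± 1.02 CPM (SD, n = 3) in CTR and 8.75 ± 4.03 CPM (SD, n = 4) in VPA. The log2 fold change was 0.26 (SE 0.66), with 0.01 without VPA replicate 3 and 0.55 without VPA replicate 2. Its sign depended on the fit: it was negative with limma-voom and with the slice culture number as a block. Eln, the elastin gene, had 0, 35 and 3 counts in CTR and 0 in all 4 VPA libraries. Its 35 counts in CTR replicate 2 (6.90 CPM) were above the limit of 3 counts, and the other libraries were at or under it. That library is also the deepest, and since the level of Eln in CTR rests on it alone no fold is given. Mfap4 had 3 counts in VPA replicate 3 (2.41 CPM) and 0 elsewhere, which is at the limit.

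**Figure D2:**
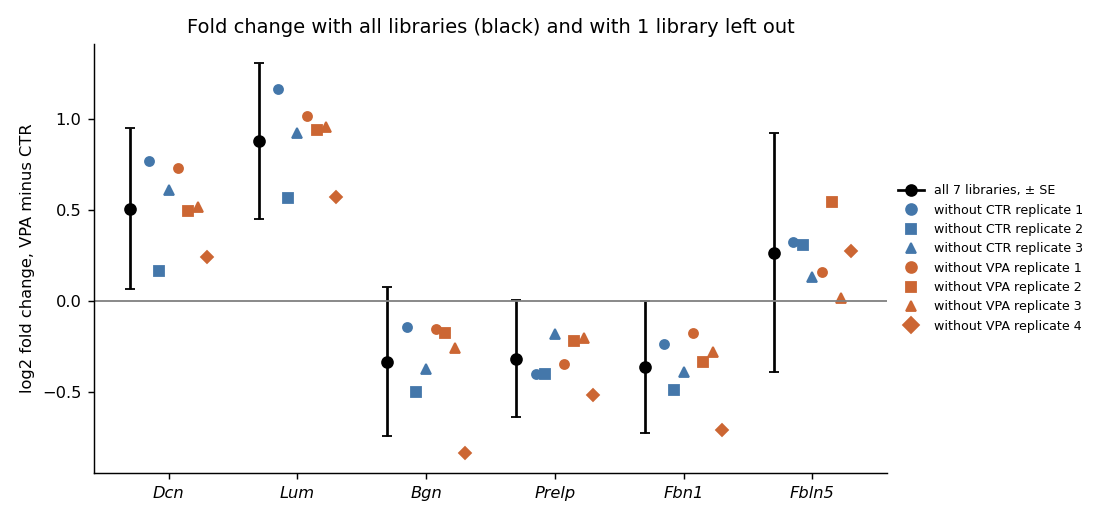
Log2 fold change, VPA minus CTR, of the 6 genes that passed the filter on low counts (vertical axis). Black points are the estimates with all 7 libraries and their bars ± 1 SE, and coloured symbols are the estimates with the library in the legend left out. No estimate crossed 0 on leaving out a library. Dcn and Lum were lowest without CTR replicate 2, and Bgn, Prelp and Fbn1 were lowest without VPA replicate 4.

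The slice culture numbers 71, 72 and 74 occur in both groups, and the values of libraries that share a number were set side by side after the data were seen. VPA minus CTR in log2 CPM was 0.24, 0.65 and 1.60 for Dcn under numbers 71, 72 and 74. For Lum it was 0.47, 1.06 and 1.52 in the same order. Both genes were thus higher in the VPA library under 3 of 3 numbers. Dcn belongs to the choice of the set and the share of all genes with this pattern was not counted, so this is a description. Bgn differed by -0.56, 0.25 and -0.53, Prelp by -1.001, 0.302 and -0.442 and Fbn1 by -0.64, 0.11 and -0.15, lower under numbers 71 and 74 and higher under number 72, which VPA replicate 4 carries. Fbln5 differed by 0.99, 0.07 and -1.02.

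The type I and III collagens, against which the set was chosen, were lower in every VPA library than in any CTR library. Col1a1 had a mean of 723 ± 218 CPM (SD, n = 3) in CTR and 229 ± 38.9 CPM (SD, n = 4) in VPA, a log2 fold change of -1.66 (SE 0.24). For Col1a2 the means were 556 ± 238 CPM and 185 ± 30.1 CPM, with a log2 fold change of -1.58 (SE 0.30), and for Col3a1 597 ± 233 CPM and 209 ± 101 CPM. Col1a2 and Col3a1 each overlap another gene model on their own strand (Gm43921 and Gm47302). The choice of the set used the values of these collagens too, so no p is given for them. In the counts of a library, Dcn was 1.20, 0.796 and 1.41 times Col1a1 in CTR and 2.52, 7.25, 4.79 and 6.88 times in VPA. That ratio carries little about Dcn, since 56.7% of all tested genes had a count ratio to Col1a1 that was apart with VPA above.

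A ratio within the set is free of library size. Dcn had 1.72, 1.01 and 1.91 counts per count of Bgn in CTR and 2.32, 4.45, 3.33 and 2.27 in VPA. All 4 VPA libraries were above all 3 CTR libraries, with means of 1.55 ± 0.475 (SD, n = 3) and 3.09 ± 1.03 (SD, n = 4). Over all tested genes, 2.06% had a ratio to Bgn that was apart with VPA above. Dcn and Lum, in contrast, kept a ratio that overlapped between the groups, at 38.6, 34.7 and 42.1 counts of Dcn per count of Lum in CTR and 21.4, 35.3, 35.5 and 28.7 in VPA. The set was chosen on Dcn, so these ratios are a description.

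Because the summed level of the 14 stellate cell markers ranged from 276 to 853 CPM and overlapped between the groups, the counts were also expressed per 100 counts on those markers in the same library. This scale was chosen after the data were seen, and Dcn and the collagens belong to the choice of the set, so the values are a description. Dcn had 154, 109 and 128 counts per 100 stellate marker counts in CTR replicates 1 to 3 and 218, 253, 252 and 211 in VPA replicates 1 to 4. VPA replicate 1, which had overlapped with CTR in CPM, was now above every CTR library, as was each of the others. The mean of Dcn was 130 ± 22.7 (SD, n = 3) in CTR and 233 ± 22.2 (SD, n = 4) in VPA, a ratio of means of 1.79. Lum had 3.99, 3.13 and 3.03 counts per 100 in CTR and 10.2, 7.15, 7.11 and 7.35 in VPA, with a ratio of means of 2.35 and the groups apart in the same direction.

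On this scale Bgn, Prelp, Fbn1 and Fbln5 overlapped between the groups. Bgn had 89.7, 108 and 66.6 counts per 100 stellate marker counts in CTR and 94.1, 56.8, 75.7 and 92.7 in VPA, a ratio of means of 0.908. Fbn1 had 7.33, 10.1 and 5.85 in CTR and 7.58, 6.90, 6.24 and 6.90 in VPA, a ratio of 0.891, and VPA replicate 4 was within the CTR range for both genes. Without Cygb in the denominator it was the highest VPA library for Bgn (177) and Fbn1 (13.2), still within the CTR range. The ratio of means was 1.02 for Prelp and 1.59 for Fbln5. Col1a1, Col1a2 and Col3a1 had ratios of 0.432, 0.457 and 0.421, with every VPA library below every CTR library. Over all tested genes outside the marker list, 1.44% were apart with VPA above and 2.39% with VPA below, and nothing is read from the set beside these shares.

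The stellate denominator rested on 1882, 1916 and 1418 counts in CTR and on 422, 1608, 577 and 1130 in VPA, and 1 to 3 of the 14 markers were at 0 in a CTR library and 2 to 5 in a VPA library. Without Cygb, the most counted marker, the ratio of means was 1.63 for Dcn and 2.13 for Lum. With the 6 markers that had a count in every library (Lrat, Reln, Hgf, Ecm1, Cygb and Rgs5) it was 1.70 and 2.21, and both genes stayed apart under both denominators. Of the 12 stellate markers tested, 9 were lower and 3 higher in VPA (median log2 fold change -0.47), none with an adjusted or unadjusted p under 0.05. The part that a lower denominator plays in these ratios was not tested.

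**Figure D3:**
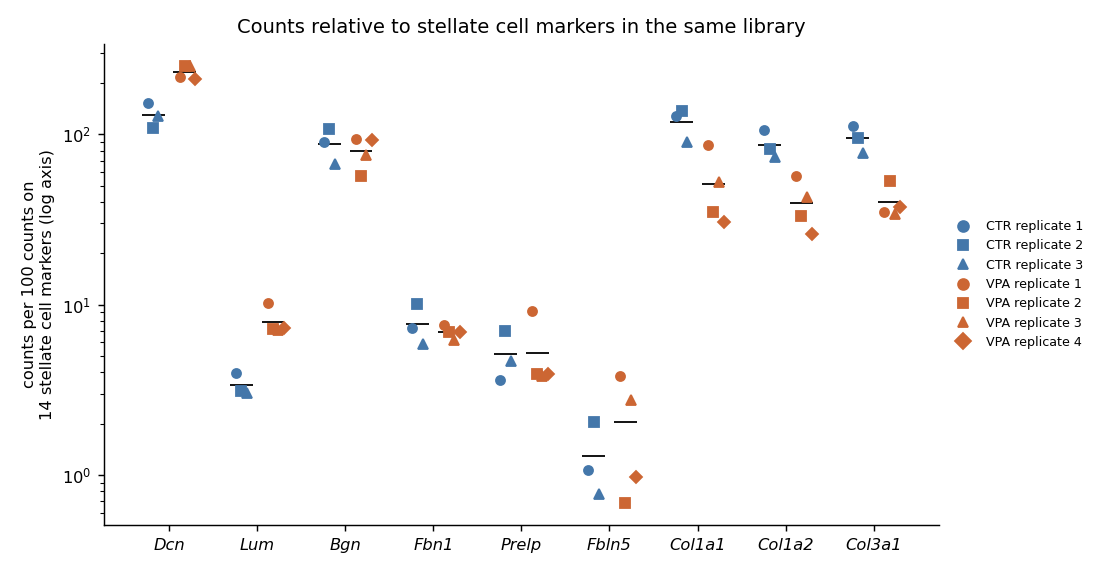
Counts of 6 genes of the set and of 3 collagens per 100 counts on 14 stellate cell markers in the same library (vertical axis, log scale). Blue symbols are the CTR and orange symbols the VPA libraries, and horizontal bars are group means. Every VPA library lies above every CTR library for Dcn and Lum and below for Col1a1, Col1a2 and Col3a1, and the groups overlap for Bgn, Fbn1, Prelp and Fbln5.

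The other genes of the pathway were read from lists written with earlier results of these data known. Of 58 tested genes in those on proteoglycans, elastic fibres, collagens, glycosaminoglycan synthesis, receptors and proteases, none had an adjusted p under 0.05 in edgeR. At an unadjusted p of 0.05, 10 were lower and 1 was higher, where 4.62% and 3.65% of all tested genes were. The lower genes include Col1a1, Col1a2 and Col3a1, which belong to the choice of the set, so nothing is read from this count. DESeq2, with 78 of these genes tested, gave an adjusted p under 0.05 to 5 of them, Col1a1, Col1a2, Mmp9 and Mmp14 as lower and Ctsl as higher, of which Mmp9 is named after its values were seen and the collagens belong to the choice of the set. Over all its genes DESeq2 called 0.754% as lower and 0.256% as higher. With at least 10 counts in every library edgeR called Col1a1, Col1a2 and Mmp14, all lower, among 36 calls over 6652 genes. With no filter it called Col1a1 alone from these lists, as lower. Of the 12 other leucine-rich proteoglycans, Kera, Epyc, Optc, Chad and Nepn were at 0 in every library, and 1 gene passed the filter. That gene, Tsku (tsukushi, a secreted regulator of growth factor signalling), was at 11.4, 8.67 and 12.6 CPM in CTR and at 3.92, 0, 0 and 8.31 CPM in VPA. Its groups were apart with VPA below, as were 7.41% of all tested genes, and 2 of its VPA libraries were at 0. Tsku passed the filter mainly through its CTR libraries.

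The list of other elastic fibre genes includes the latent TGFβ binding proteins, emilins, fibulins and the lysyl oxidases that cross-link elastin. Of its 24 genes, 10 passed the filter, and of these 9 were lower and 1 higher, beside 54.2% lower over all tested genes, with a median log2 fold change of -0.44, 1 lower at an unadjusted p and none with groups apart. Fbn1 at -0.36 was near that median, while Fbln5 was above it. Of the 11 fibrillar collagens 8 were tested, 7 lower and 1 higher, with a median of -1.10, and Col1a1, Col1a2, Col3a1 and Col5a3 had groups apart with VPA below, beside 7.41% of all tested genes. Col1a1, Col1a2 and Col3a1 belong to the choice of the set, and Col5a3 passed the filter mainly through its CTR libraries. Nothing is therefore read from this count beside that share. Col5a3, a minor fibril collagen, was at 46.9, 35.1 and 32.9 CPM in CTR and at 0, 0, 0 and 32.5 CPM in VPA, so its log2 fold change of -2.28 (SE 1.67) rests on 1 library with counts and was -9.63 without that library, which is no bound because every remaining VPA library was at 0. All 5 tested collagens of the fibril-associated and type VI group were lower, with a median of -0.56, and none had groups apart.

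Of the enzymes that build the sugar chains of these proteoglycans 17 were tested, 7 lower and 10 higher with a median log2 fold change of 0.22. Over all tested genes 54.2% were lower. None passed an unadjusted p of 0.05. B3gat3, which completes the linker on which the chains of decorin and biglycan are made, was the one tested enzyme with groups apart, at 24.4, 17.7 and 24.7 CPM in CTR and 1.96, 0, 4.01 and 15.9 CPM in VPA. It passed the filter mainly through its CTR libraries, and 7.41% of all tested genes were apart with VPA below. Among 7 tested receptors of decorin, biglycan and lumican, 5 were lower and 2 higher, beside the same 54.2% lower over all tested genes. Met, the hepatocyte growth factor receptor that decorin binds, was lower at -1.09 (SE 0.38), with 50.6 ± 19.4 CPM (SD, n = 3) in CTR and 23.8 ± 9.17 CPM (SD, n = 4) in VPA. Cd44 was lower at -0.67 (SE 0.21), and Igf1r, which decorin also binds, was higher at 0.52 (SE 0.23) and at 0.32 without VPA replicate 4. Groups apart were a condition for naming these receptors, 2 with VPA below and 1 with VPA above. Over all tested genes 7.41% and 4.44% were apart in these directions.

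Of 10 tested proteases that process or cleave these proteins, 7 were lower and 3 higher, beside 54.2% lower over all tested genes. Mmp14, a membrane metalloproteinase, was at 308, 218 and 240 CPM in CTR and 106, 126, 115 and 142 CPM in VPA (log2 fold change -1.06, SE 0.17). Adamts4, an aggrecanase, was lower at -0.90 (SE 0.38). Ctsl, the lysosomal protease cathepsin L, was higher at 1.43 (SE 0.35), with 517 ± 131 CPM (SD, n = 3) in CTR and 1397 ± 573 CPM (SD, n = 4) in VPA. Groups apart were a condition for naming these 3, and Adamts1 was also apart, with VPA below. In the list 3 of the 10 were apart with VPA below and 1 with VPA above, beside 7.41% and 4.44% of all tested genes.

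**Figure D4:**
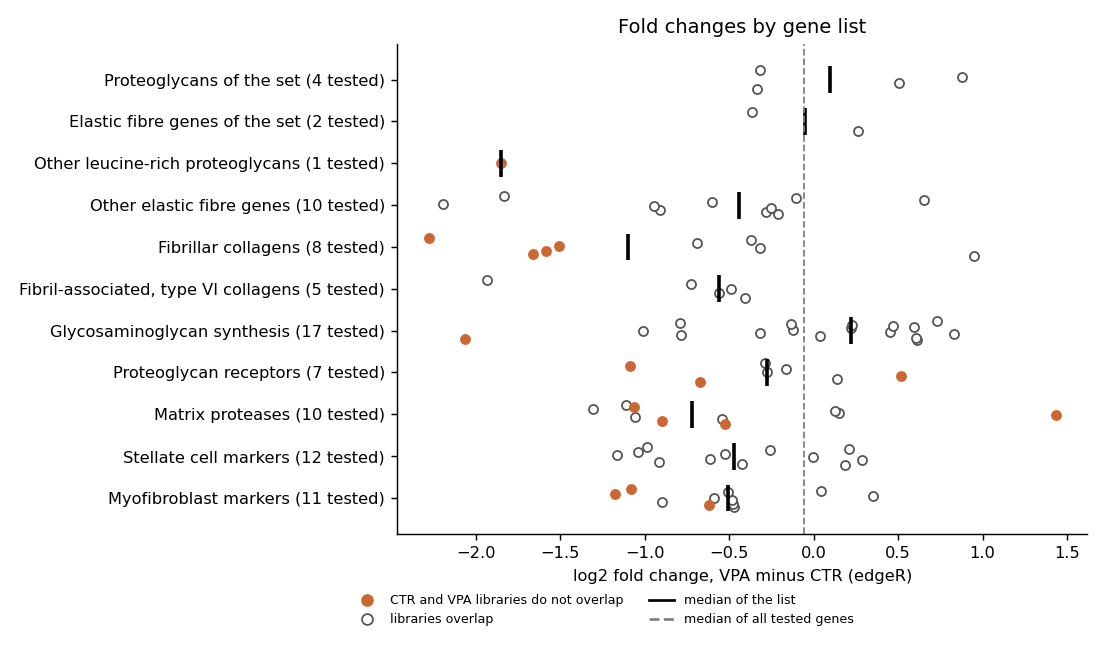
Log2 fold change, VPA minus CTR, from edgeR (horizontal axis) for each tested gene of 11 lists (rows). Filled points are genes whose CTR and VPA libraries do not overlap, open points genes whose libraries overlap, black bars list medians and the dashed line the median of all tested genes. The proteoglycans of the set lie on both sides of 0, while 7 of 8 fibrillar collagens lie below it.

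Other cell types can also hold these transcripts, so their markers were read in the same libraries, beside 54.2% of all tested genes lower and 7.41% apart with VPA below. The portal fibroblast markers, of which Clec3b and Gli1 were at 0 in every library, summed to 105 to 217 CPM in CTR and 105 to 201 CPM in VPA, with 2 of 4 tested genes lower and 2 higher. The smooth muscle markers summed to 117 to 145 CPM in CTR and 76.3 to 106 CPM in VPA, with 5 of 5 tested genes lower. The mesothelial markers summed to 1.64 to 21.9 CPM in CTR and 1.61 to 21.5 CPM in VPA, of which Muc16 was at 0 in every library and none was tested. The myofibroblast markers summed to 2071 to 2788 CPM in CTR and 1316 to 1918 CPM in VPA, with 9 of 11 tested genes lower and groups apart for 3, all with VPA below. The endothelial markers summed to 466 to 564 CPM in CTR and 159 to 412 CPM in VPA, with 8 of 10 tested genes lower and 4 apart with VPA below. The macrophage markers (2 lower and 6 higher, with Adgre1 and Marco at 0 in every library) and the cholangiocyte markers (3 lower and 2 higher) summed to 329 to 464 CPM and 439 to 721 CPM in CTR, and to 360 to 640 CPM and 276 to 786 CPM in VPA. The part of any of these cell types in the levels of the 10 genes was not tested.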

How the data were processed

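Whole-number counts per Ensembl gene from 3 CTR and 4 VPA libraries were used as the authors deposited them, without normalization. The authors trimmed the 3′ end reads, mapped them to GRCm38 (mm10 in the submitters' processing notes) with STAR and used StringTie. The counting program, its use of strand and of reads with several places are not given in the sources used here. The counts on genes were 1400887 to 4773750 per library.

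Genes were tested with edgeR 4.0.16 in R 4.3.3 (TMM, filterByExpr, robust quasi-likelihood test with condition as the only term, Benjamini-Hochberg adjustment at 0.05), over 10876 genes. DESeq2 1.42.0, which the study's methods name, and limma 3.58.1 were alternatives, with other normalizations, filters and prior counts, a block and leaving out each library. CPM values use TMM-scaled library sizes. P-values measure the spread between these libraries, which may in part be technical. Replicate libraries differed from each other beyond the sampling noise of counts. The code was tested on simulated data.

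The members and lists were chosen with earlier results of these data known. Named genes are the 10 members, 3 collagens and, per list, up to 3 tested genes of largest change whose groups were apart, with 5 CPM or more as the mean of the higher one. Symbols came from GENCODE, promoters and motifs from RefSeq. A gene is called lower or higher here by the sign of its log2 fold change, and groups are called apart where no CTR and VPA libraries overlap.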

Additional observations from a re-analysis of the deposited data

Results flagged for a closer look

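Mfap4, the microfibril-associated glycoprotein gene, was at 2.41 CPM in VPA replicate 3 and at 0 in the other 3 VPA libraries, so this library stood far from its group. The value rests on 3 counts, which is the limit that a count of 0 allows in that library. With the other 3 libraries tied at 0, any count in the remaining one would have stood as far out.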

How the results depend on the processing

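Beside the 1 gene called by edgeR (900 at an unadjusted p of 0.05), DESeq2 called 154 genes, 39 higher and 115 lower, no filter gave 10 calls, at least 10 counts in every library gave 36, and leaving out 1 library gave 0 to 2. With a replicate block no gene was called by edgeR, either by replicate number (980 at an unadjusted p) or by slice culture number (867). Each block leaves out the VPA library whose number CTR lacks. Deviations of same-numbered libraries correlated at -0.05, 0.05 and 0.11 by replicate and at 0.11, 0.03 and 0.05 by slice culture. By slice culture number 2 of 3 CTR and 3 of 3 VPA libraries correlated best with their own number, a hint from the data, and whether that number pairs the libraries is not stated. CTR and VPA replicates 2 share a number both ways, as do replicates 3. The schemes differ only in the partner of CTR replicate 1, at -0.05 with VPA replicate 1 and 0.03 with VPA replicate 4. Genes of the pathway lists called at an unadjusted p were 11, 17 with limma-voom and 7 to 13 on leaving out 1 library. Without a filter 5 of 9 members were lower with VPA in place of 3 of 6. The members with groups apart were 0, 1 (Lum) with library totals, and 0 to 3 on leaving out 1 library. Of the 3 steps in level past the exact test, 0 passed on leaving out any 1 library, where the smallest p that 6 libraries allow is too large. Dcn and Lum per stellate marker count had ratios of 1.66 to 1.98 and 2.13 to 2.58 on leaving out 1 library, an alternative chosen after seeing the data. The log2 fold changes of Dcn, Lum, Bgn, Prelp and Fbn1 kept their sign under all 17 alternatives, and Fbln5 changed sign under limma-voom and the slice culture block (lowest -0.48). Fmod and Mfap4 in every library and Eln in all but 1 were at or under the limit of 3 counts.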
